A study of Mus musculus with 24 samples.

Results

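Glucose metabolism and insulin signalling genes of the liver were followed through loss and partial return of the growth hormone receptor. The 37 genes were chosen by name, not by a measured value, and cover gluconeogenesis, glycolysis, glycogen and fructose metabolism, the pentose phosphate pathway, glucose transport and pyruvate oxidation, and the insulin signalling chain. Of these, 27 had a read count in every library, among 1999 genes of a table of 56748 that were in hand, none with a mean under 1123 counts. The other 10 had no counts in hand and were placed by their side in ranked gene lists. All 27 passed the filter of at least 10 counts in every library. Livers came from 24 mice in 4 groups of 6, each with 3 males and 3 females and 1 RNA library per mouse. GHR+/+ mice carried an intact receptor gene and GHR-/- mice, a model of Laron syndrome, lacked the receptor in the whole body. AAV-HLP-Luc and AAV-HLP-mGHR mice were GHR-/- mice injected into the peritoneum at 4 to 5 weeks of age with 40000000000 genomes of an adeno-associated vector that carried luciferase or the mouse receptor behind HLP, a synthetic promoter that acts in liver, so the receptor gene was given back to liver alone. Uninjected mice were killed at 21 weeks and injected mice at 30 to 31 weeks, so GHR+/+ against GHR-/- and AAV-HLP-mGHR against AAV-HLP-Luc are the comparisons matched for age and injection. In the other pairings age and injection differ together and cannot be told apart.

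The liver stores glucose as glycogen after a meal, breaks it down by glycolysis, and in fasting releases glucose from glycogen and from newly made glucose. Insulin acts through its receptor, phosphoinositide 3-kinase and the kinase Akt to favour storage and to restrain gluconeogenesis. Growth hormone works against insulin in many tissues, and animals without its receptor are small and sensitive to insulin.

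Levels are given as normalized read counts, the reads of a gene divided by a size factor of the library. Groups were compared with limma on the counts of all 1999 genes, and a gene was called where its p, adjusted over those genes by the Benjamini-Hochberg method, was under 0.05. Libraries held 26453904 to 38194053 reads in these genes. Ghr, the targeted gene, lay at 18665 to 27559 normalized counts in GHR+/+ and 2052 to 2655 in GHR-/-. It lay at 1416 to 3257 in AAV-HLP-Luc and 2615 to 4968 in AAV-HLP-mGHR. The difference of AAV-HLP-mGHR from AAV-HLP-Luc was 0.63 on the log2 scale (standard error 0.21, limma adjusted p = 0.177) and was not called. The paper, which used DESeq2, reports this rise of Ghr as significant. All 7 hepatocyte markers, such as Alb and Apoa1, were held and none was at 0 in any mouse. Male 005 of AAV-HLP-Luc and female 024 of AAV-HLP-mGHR stood apart for several members, and their comparison is also given without them. In whole liver RNA, fewer cells of a type and less RNA per cell cannot be told apart.

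The promoters of 4 called members are shown, Pklr and Pik3r1 from those higher in GHR+/+ and Pdk2 and Pdha1 from those lower. Each is taken from the 250 bases before the first listed start of the gene in RefSeq. It is read 5′ to 3′ on the strand of the gene and is free of the gene's own exons. For Pdk2 the bases nearest that start lie in an annotated exon of the gene and were cut off, which left 205. They lie at Pklr chr3:89043199-89043448 (plus strand), Pik3r1 chr13:101904726-101904975 (minus), Pdk2 chr11:94932243-94932447 (minus) and Pdha1 chrX:158921427-158921676 (minus) of GRCm39. Capitals mark an E-box, CACGTG, the letters read by several factors that answer to glucose and lipid supply. Pklr, Pik3r1 and Pdk2 each have a second start in RefSeq, whose stretch is not shown and holds no CACGTG. Only these exact letters were searched, so looser forms of the E-box could be present in any stretch. That of Pklr lies at chr3:89043680-89043929. Which start the liver uses was not tested.
Pklr: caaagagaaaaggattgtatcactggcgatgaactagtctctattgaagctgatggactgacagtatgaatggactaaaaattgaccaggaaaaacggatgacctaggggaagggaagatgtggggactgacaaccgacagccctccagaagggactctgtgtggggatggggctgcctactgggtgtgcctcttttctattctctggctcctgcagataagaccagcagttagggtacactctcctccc
Pik3r1: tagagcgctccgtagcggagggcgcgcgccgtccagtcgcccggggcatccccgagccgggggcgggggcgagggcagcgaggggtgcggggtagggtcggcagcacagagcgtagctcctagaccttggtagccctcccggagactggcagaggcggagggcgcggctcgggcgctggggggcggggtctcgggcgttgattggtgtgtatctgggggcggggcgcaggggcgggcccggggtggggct
Pdk2: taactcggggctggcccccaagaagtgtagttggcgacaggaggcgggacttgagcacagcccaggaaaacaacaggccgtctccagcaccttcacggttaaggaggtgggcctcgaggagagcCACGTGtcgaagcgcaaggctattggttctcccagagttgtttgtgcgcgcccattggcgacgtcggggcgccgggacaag
Pdha1: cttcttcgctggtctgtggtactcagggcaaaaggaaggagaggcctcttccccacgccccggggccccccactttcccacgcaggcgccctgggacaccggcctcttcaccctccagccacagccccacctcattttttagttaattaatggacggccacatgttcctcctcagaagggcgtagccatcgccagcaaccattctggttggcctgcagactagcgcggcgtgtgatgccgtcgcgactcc
4 kinds of letters were searched on both strands of the 250 bases before the starts in RefSeq, over 49 promoters of 34 members. The E-box stood in 6 member promoters, those of Irs1, Irs2, Khk, Ldha, Pcx and Pdk2, against 6.02% of 32851 promoters in the RefSeq table (build GRCm38.p6). The core of the cAMP response element, TGACGT, stood in those of Pck1, Ppargc1a and Ldha (6.47% of all), at base -91 in Pck1. The STAT5 letters TTCNNNGAA, after the factor that carries the growth hormone signal, stood in that of Akt2 (7.02% of all), and the FoxO letters TGTTTAC in none (3.17% of all). These matches are a description of the letters and not of binding.

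The members spanned a wide range of levels in liver. FPKM, which scales reads by gene length and library depth, was held for 25 members and allows genes to be set side by side. In GHR+/+ livers, mean FPKM was highest for Pck1 (627) and Fbp1 (621), both enzymes of gluconeogenesis, followed by the lactate dehydrogenase subunit Ldha (210.5), the fructose kinase Khk (176) and G6pc (169). The insulin receptor gene Insr (11.7) and the kinase Akt2 (15.1) were lowest. Of the 7 insulin signalling members, Insr and Akt2 alone had FPKM values per mouse in hand.

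**Figure D1:**
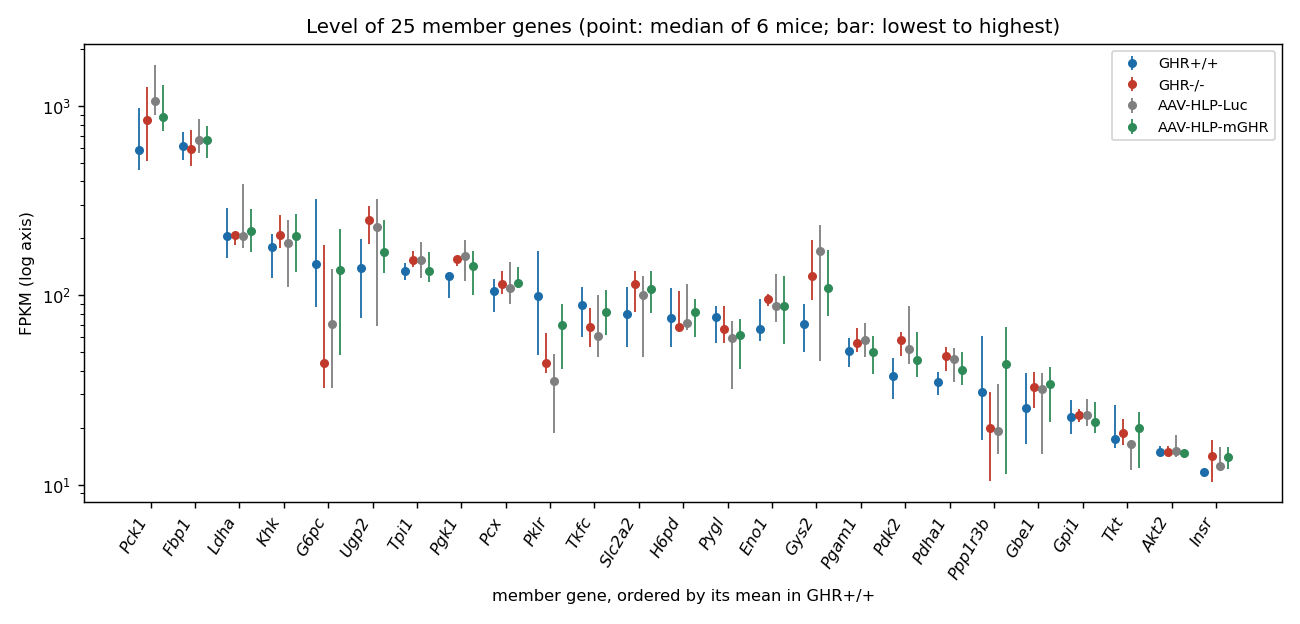
FPKM on a log axis of the 25 members that had it, ordered by their mean in GHR+/+, with the median of 6 mice per group as a point and the lowest to highest mouse as a bar. Pck1 and Fbp1 stand at the top with means of 627 and 621 in GHR+/+, and Akt2 and Insr at the bottom with 15.1 and 11.7.

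Loss of the receptor went with changes in 9 of the 27 members. In GHR+/+ livers the glycogen genes Gys2 and Ugp2, the pyruvate dehydrogenase genes Pdk2 and Pdha1 and the glycolytic genes Pgk1 and Eno1 were lower than in GHR-/-. Liver pyruvate kinase Pklr, the insulin signalling subunit Pik3r1 and the pentose phosphate enzyme Taldo1 were higher. The 3 members higher and 6 lower stand beside 24.6% of all 1999 genes called, 237 higher and 255 lower, a share not far from that of the members, so the count itself says nothing particular to them. The median log2 fold change was -0.13 over the members and 0.01 over all genes.

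Of the glycogen genes, Gys2, liver glycogen synthase (ENSMUSG00000030244, chromosome 6, 142368339 to 142418841, minus strand, GRCm39), counted 5397, 6979 and 8764 reads in the lowest, median and highest of the 6 GHR+/+ mice and 9625, 12566 and 20622 in GHR-/-. Every GHR-/- mouse was above every GHR+/+ mouse. The level in GHR+/+ was 0.527 of that in GHR-/- (log2 fold change -0.92, standard error 0.20, adjusted p = 0.00617). Ugp2, which makes the UDP-glucose that the synthase adds to the chain (ENSMUSG00000001891, chromosome 11, 21270384 to 21321276, minus strand), counted 9359, 16823 and 21372 in GHR+/+ and 22076, 27710 and 35110 in GHR-/-. Here too the groups did not overlap, and the level in GHR+/+ was 0.561 of that in GHR-/- (log2 fold change -0.83, standard error 0.18, adjusted p = 0.0066). The other 3 glycogen members were not called. Liver glycogen phosphorylase Pygl, which breaks glycogen down, averaged 19260 ± 3042 in GHR+/+ and 17717 ± 3174 in GHR-/- (SD, n = 6). The branching enzyme Gbe1 averaged 5410 ± 1278 and 6433 ± 1269. Ppp1r3b, which brings a phosphatase to glycogen and so activates the synthase, averaged 7895 ± 3576 in GHR+/+ and 4827 ± 1595 in GHR-/- (log2 fold change 0.66, adjusted p = 0.142), a direction opposite to that of Gys2.

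Among the genes of pyruvate oxidation and transport, Pdk2, a kinase that switches off pyruvate dehydrogenase (ENSMUSG00000038967, chromosome 11, 94914929 to 94932242, minus strand), had the smallest adjusted p of the members. It counted 3626, 4573 and 5183 in the lowest, median and highest GHR+/+ mouse and 5999, 6865 and 7393 in GHR-/-, with no overlap. The level in GHR+/+ was 0.658 of that in GHR-/- (log2 fold change -0.60, standard error 0.10, adjusted p = 0.00153). Pdha1, the catalytic alpha subunit of pyruvate dehydrogenase itself (ENSMUSG00000031299, chromosome X, 158904237 to 158921426, minus strand), counted 4280, 4921 and 5191 in GHR+/+ and 5516, 6647 and 7484 in GHR-/-. These groups did not overlap either, and the level in GHR+/+ was 0.748 of that in GHR-/- (log2 fold change -0.42, standard error 0.09, adjusted p = 0.00495). An enzyme and its inhibitor were thus lower together. Slc2a2, the glucose transporter of hepatocytes, lay at 11820 to 22455 in GHR+/+ and 18166 to 27388 in GHR-/- (log2 fold change -0.48, standard error 0.17, adjusted p = 0.06). It was called without GHR-/- male 114 (0.0411) or GHR+/+ females 120 (0.0324) or 121 (0.048).

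Along glycolysis, Pklr, the liver pyruvate kinase of the last step of glycolysis (ENSMUSG00000041237, chromosome 3, 89043449 to 89054619, plus strand), counted 6064, 12388 and 19551 in GHR+/+ and 4929, 5286 and 7674 in GHR-/-. All but the lowest GHR+/+ mouse were above every GHR-/- mouse. The level was 1.97 times as high in GHR+/+ (log2 fold change 0.98, standard error 0.23, adjusted p = 0.00974). Phosphoglycerate kinase Pgk1 (ENSMUSG00000062070, chromosome X, 105230706 to 105247305, plus strand) counted 8447, 10700 and 11520 in GHR+/+ and 11864, 12715 and 14308 in GHR-/-, without overlap. Its level in GHR+/+ was 0.80 of that in GHR-/- (log2 fold change -0.32, standard error 0.09, adjusted p = 0.0189). Enolase Eno1 (ENSMUSG00000063524, chromosome 4, 150321073 to 150337027, plus strand) counted 11967, 14380 and 18065 in GHR+/+ and 16783, 19328 and 21593 in GHR-/-, with overlap at the edges. Its level in GHR+/+ was 0.763 of that in GHR-/- (log2 fold change -0.39, standard error 0.11, adjusted p = 0.0214). The call of Eno1 was lost without GHR+/+ male 103 (adjusted p = 0.0504), and the calls of Eno1 (0.068) and Pgk1 (0.0532) were lost in a fit over all 24 libraries. The remaining 4 glycolytic members were not called. Triose phosphate isomerase Tpi1 averaged 13975 ± 813 in GHR+/+ and 15950 ± 1331 in GHR-/- (adjusted p = 0.0771), and phosphoglycerate mutase Pgam1 3875 ± 645 and 4208 ± 532. Tpi1 was called when libraries were scaled by their totals (0.0267) and without GHR-/- female 131 (0.0456). Glucose phosphate isomerase Gpi1 averaged 5673 ± 655 and 5606 ± 609, and Ldha 26644 ± 6932 and 25277 ± 2280 (SD, n = 6). Pgk1 has 2 genes and Eno1 3 genes of near-identical sequence elsewhere in the genome, and reads could be split among them.

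None of the 4 gluconeogenic or 2 fructose members was called. G6pc, which encodes the catalytic subunit of glucose-6-phosphatase and so frees glucose for release (ENSMUSG00000078650, chromosome 11, 101258369 to 101268729, plus strand), counted 7361, 13332 and 31115 in GHR+/+ and 2909, 3764 and 16610 in GHR-/-. In GHR-/-, 4 mice lay at 2909 to 3774 and males 114 and 136 at 13052 and 16610, inside the GHR+/+ range. The log2 fold change was 1.38 (standard error 0.49, adjusted p = 0.059). It was called with sex as a covariate (0.0148), in the fit over all 24 libraries (0.0402) and without GHR-/- male 114 (0.0314), GHR-/- male 136 (0.0189) or GHR+/+ female 121 (0.0454). Pck1, whose enzyme commits carbon to gluconeogenesis, averaged 80842 ± 19127 in GHR+/+ and 108200 ± 33214 in GHR-/- (log2 fold change -0.40, standard error 0.21, adjusted p = 0.176), which is the opposite direction to G6pc. Pck1 was called only without GHR-/- female 134 (adjusted p = 0.0484). Fructose bisphosphatase Fbp1 averaged 39911 ± 4185 and 37793 ± 4444, and pyruvate carboxylase Pcx 18731 ± 2992 and 20593 ± 2183. Of the fructose members, Khk averaged 11991 ± 2046 and 14495 ± 2437, and the triokinase Tkfc 15469 ± 2970 and 11943 ± 1937 (log2 fold change 0.37, standard error 0.15, adjusted p = 0.0814). Tkfc was called with sex as a covariate (0.0454) and without GHR+/+ female 119 (0.0231).

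In the pentose phosphate pathway, Taldo1, the transaldolase that links the pentose phosphate pathway to glycolysis (ENSMUSG00000025503, chromosome 7, 140972053 to 140982886, plus strand), counted 3180, 4032 and 4611 in GHR+/+ and 2946, 3305 and 3525 in GHR-/-. The groups overlapped, and the level was 1.22 times as high in GHR+/+ (log2 fold change 0.28, standard error 0.09, adjusted p = 0.0305). Taldo1 was called in 7 of 12 fits that left out 1 mouse, and the adjusted p reached 0.0724 without GHR+/+ male 101, 102 or 103 or GHR-/- male 136 or female 131. Transketolase Tkt averaged 5424 ± 985 and 5157 ± 509, and H6pd, which makes reducing power inside the endoplasmic reticulum, 15607 ± 5566 and 14657 ± 3654. Pik3r1, the regulatory subunit that ties phosphoinositide 3-kinase to the insulin receptor substrates (ENSMUSG00000041417, chromosome 13, 101817071 to 101904725, minus strand), counted 2623, 3748 and 4296 in GHR+/+ and 1515, 2553 and 2829 in GHR-/-. A single GHR+/+ mouse lay within the GHR-/- range. The level was 1.52 times as high in GHR+/+ (log2 fold change 0.60, standard error 0.16, adjusted p = 0.0165). The other signalling members were nearly level, with Insr at 6130 ± 412 and 7029 ± 1468 and Akt2 at 4076 ± 234 and 4001 ± 173 (SD, n = 6).

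**Figure D2:**
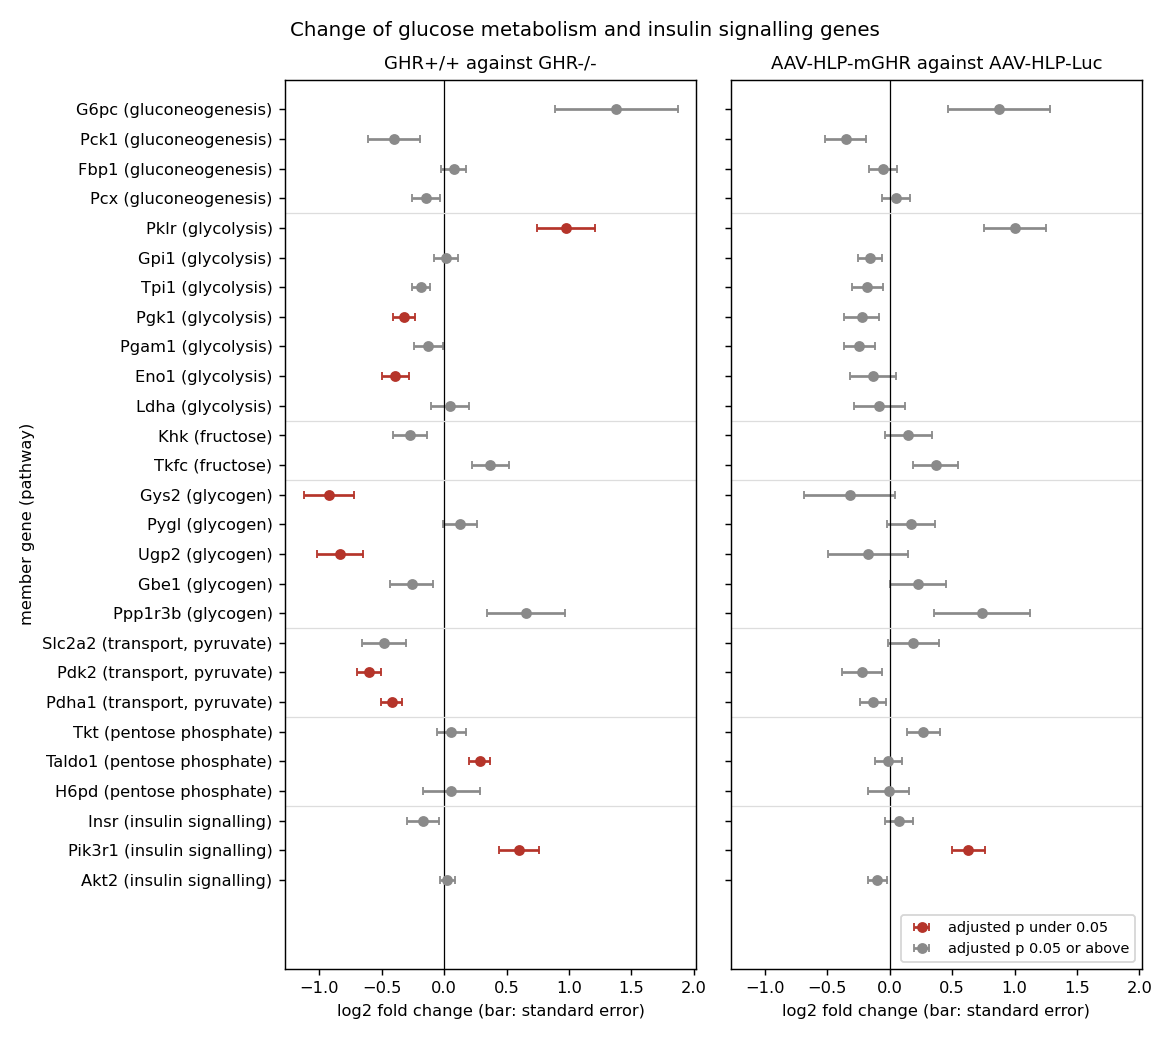
log2 fold change with standard error of the 27 members, grouped by pathway, for GHR+/+ against GHR-/- (left) and AAV-HLP-mGHR against AAV-HLP-Luc (right), with called members in red. On the left 9 members are called, from -0.92 for Gys2 to 0.98 for Pklr, and on the right Pik3r1 alone at 0.63, beside Pklr at 1.01 with a wider error.

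Non-overlap of the 6 against 6 mice was met by 5 of the 27 members, Pgk1, Gys2, Ugp2, Pdk2 and Pdha1, beside 13.8% of all genes (275 of 1999). Pklr, Gys2, Ugp2, Pdk2, Pdha1 and Pik3r1 were called in this comparison under every setting run and without any single mouse. Exons of other genes on the opposite strand overlap those of Pklr (Hcn3), Ugp2 (Vps54), Pdk2 (Samd14) and Pdha1 (Map3k15), and the strand setting of the counting is not given in the sources used here.

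Related genes outside the members were called in similar numbers. Of 28 that had counts, 3 were higher and 6 lower in GHR+/+. Among those higher were Mlxipl, the carbohydrate response factor known to drive Pklr (log2 fold change 0.73, adjusted p = 0.00212), and the glycerate kinase Glyctk (0.44, adjusted p = 0.0215). Among those lower were phosphoglucomutase Pgm1, which feeds glucose phosphate into glycogen (-0.42, adjusted p = 0.0027), the aldolase Aldoa (-0.39), sorbitol dehydrogenase Sord (-0.37), the dehydrogenase subunit Dld (-0.26) and the transcription factor Klf15 (-0.55). Within glycolysis, Pklr was thus higher in GHR+/+, whereas Aldoa, Pgk1 and Eno1 were lower.

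The summed counts of pericentral hepatocyte markers had a lower median in GHR+/+ (307250) than in GHR-/- (506070), with overlap, and the sum was not tested. With 5 of 7 held, among them Glul and Cyp2e1, the sum lay at 265680 to 408460 in GHR+/+ and 352670 to 534290 in GHR-/-. Cyp2e1 alone of the 5 was called, lower (log2 fold change -0.67), while 4 had a negative log2 fold change and 1 a positive one. All 7 periportal markers were held and summed to 174350 to 280590 and 208260 to 274300, with Cyp2f2 called higher (0.94), while 4 of the 7 had a negative log2 fold change (median -0.04). Of 7 Kupffer cell and leukocyte markers, 2 were held, summing to 5511 to 10579 in GHR+/+ and 7852 to 21541 in GHR-/-, and 1 of them was called lower. The erythrocyte marker Hbb-bs, the only 1 of 4 held, lay at 1827 to 3142 in GHR+/+ and 2765 to 4377 in GHR-/- and was called lower (log2 fold change -0.56), as was 1 of the 7 general hepatocyte markers. The stellate cell marker Dcn, 1 of 6 held, lay at 2958 to 7479 and 4157 to 9146 and was not called. No held marker of these lists was at 0 in a mouse. Their part in the members' changes was not tested.

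**Figure D3:**
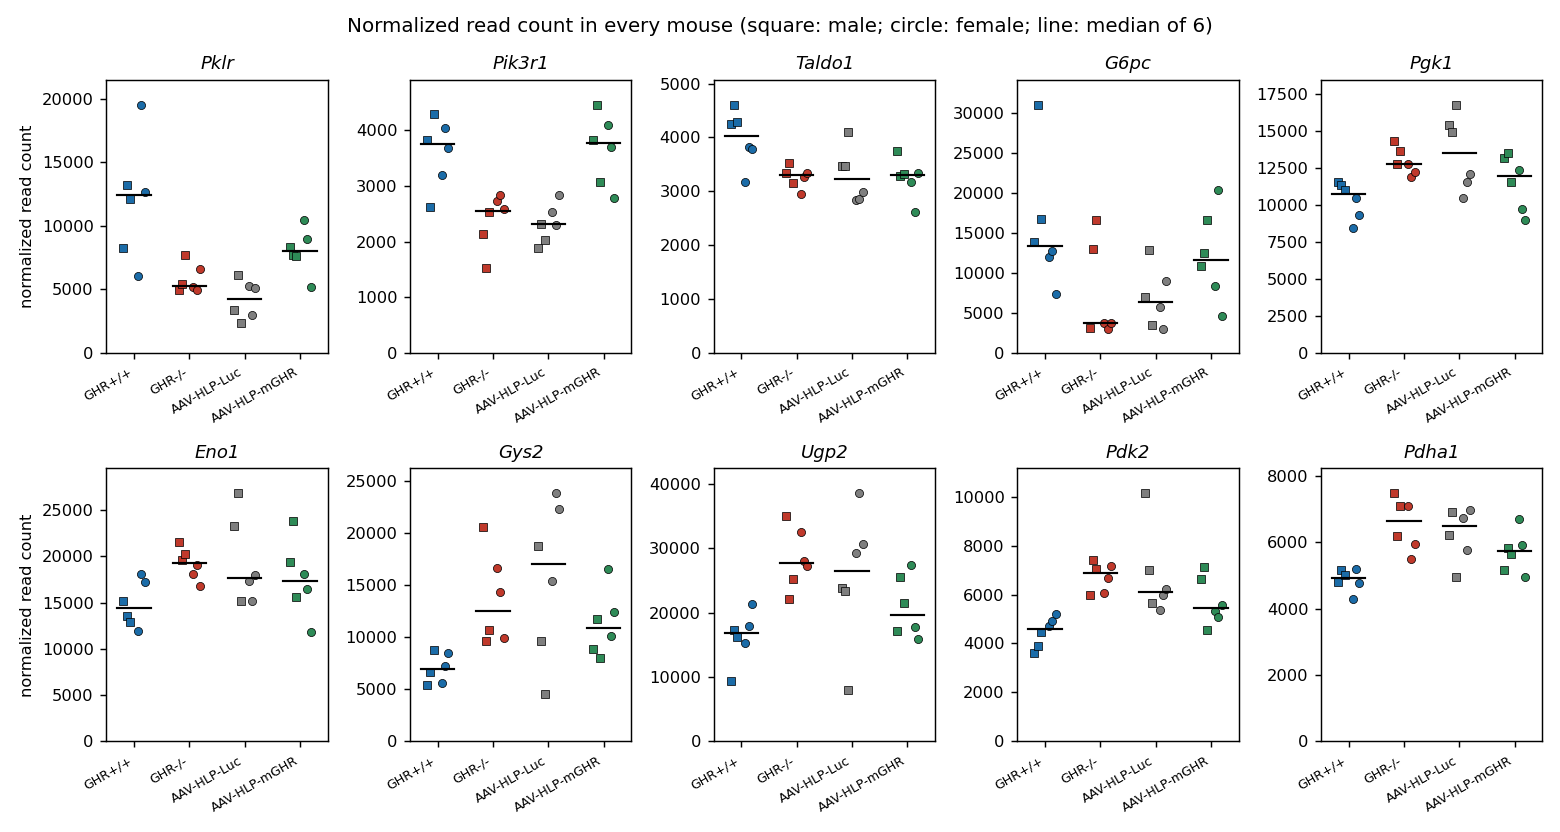
Normalized read count of the 9 members called in GHR+/+ against GHR-/- and of G6pc in each of the 24 mice, squares for males, circles for females, a line at the median of 6. Gys2, Ugp2, Pdk2, Pdha1 and Pgk1 do not overlap between GHR+/+ and GHR-/-, and G6pc shows 2 high GHR-/- males at 13052 and 16610.

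Return of the receptor to the liver by AAV-HLP-mGHR went with a higher level of 1 member, Pik3r1. Pklr had a larger fold change in the same direction but was not called. The glycogen and pyruvate dehydrogenase members that differed with receptor loss were not called here. The member called stands beside 1.55% of all genes (31 of 1999). No member was free of overlap between the groups, beside 2.35% of all genes. The median log2 fold change was -0.01 over both the members and all genes.

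Pik3r1 counted 1891, 2310 and 2835 in the lowest, median and highest AAV-HLP-Luc mouse and 2777, 3765 and 4464 in AAV-HLP-mGHR. A single AAV-HLP-mGHR mouse, female 024, lay within the AAV-HLP-Luc range. The level was 1.55 times as high with the receptor vector (log2 fold change 0.63, standard error 0.13, adjusted p = 0.0362). An exact 2-sided permutation test over the mice gave p = 0.00433 for this value alone, where 924 arrangements allow no p under 0.00216. That test was run only for members whose unadjusted limma p in this comparison was under 0.05. It used the same mice, so a small p was likely beforehand and gives no separate support. The call was lost when libraries were scaled by their totals (adjusted p = 0.0587) or by the totals behind FPKM (0.057), and it held in 4 of 12 fits that left out 1 mouse, with adjusted p from 0.0174 to 0.0854. It was lost without AAV-HLP-Luc mice 001, 002, 005 or 016 or AAV-HLP-mGHR mice 007, 008, 019 or 022.

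Pklr counted 2306, 4242 and 6087 in AAV-HLP-Luc and 5212, 7995 and 10443 in AAV-HLP-mGHR. The groups overlapped through AAV-HLP-mGHR female 024, which lay below AAV-HLP-Luc male 002 and female 015. The level with the receptor vector was 1.01 higher on the log2 scale (standard error 0.25, adjusted p = 0.0658). The exact permutation test, run after the same choice by limma p, gave p = 0.00649 for this value alone. Pklr was called with male 005 and female 024 both left out (0.0323), in the fit over all 24 libraries (0.036), without AAV-HLP-Luc female 015 (0.0494) and without AAV-HLP-mGHR female 024 (0.0447). Leaving out male 005 and female 024 thus raised the members called from 1 to 2, Pklr and Pik3r1, with Pik3r1 then at 0.67 (adjusted p = 0.0274).

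No other member was called. G6pc counted 3032, 6369 and 12830 in AAV-HLP-Luc and 4605, 11659 and 20426 in AAV-HLP-mGHR (log2 fold change 0.88, standard error 0.41, adjusted p = 0.344). Ppp1r3b averaged 5097 ± 1832 and 9475 ± 4980 (0.74, standard error 0.38, adjusted p = 0.41), and Tkfc 11176 ± 3478 and 14088 ± 2421 (0.37, adjusted p = 0.384). Pck1 averaged 148740 ± 28445 and 117620 ± 28807 (-0.35, standard error 0.17, adjusted p = 0.345). These 4 pointed the same way as in GHR+/+ against GHR-/-, without passing the main test in either comparison. Slc2a2, Khk, Gbe1 and Insr, also not called in either main test, turned. With any single mouse left out they were lower in GHR+/+ than GHR-/-, yet higher in AAV-HLP-mGHR than AAV-HLP-Luc. On the log2 scale Slc2a2 ranged from -0.56 to -0.38 and from 0.001 to 0.27, and Gbe1 from -0.35 to -0.14 and from 0.03 to 0.34.

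Gys2 counted 4534, 17095 and 23867 in AAV-HLP-Luc and 8044, 10932 and 16584 in AAV-HLP-mGHR (log2 fold change -0.32, standard error 0.36, adjusted p = 0.726). Ugp2 counted 8050, 26546 and 38577 in AAV-HLP-Luc and 15946, 19646 and 27426 in AAV-HLP-mGHR (-0.17, standard error 0.32, adjusted p = 0.839). For both genes the lowest of the 12 mice was AAV-HLP-Luc male 005. Without male 005 and female 024 the log2 fold change of Gys2 was -0.69 and that of Ugp2 -0.41, and neither was called (adjusted p = 0.191 and 0.239). Pdk2 averaged 6724 ± 1762 with luciferase and 5719 ± 979 with the receptor vector, and Pdha1 6268 ± 786 and 5706 ± 615. Pgk1 averaged 13500 ± 2508 and 11537 ± 1865, Eno1 19256 ± 4748 and 17542 ± 4029, and Taldo1 3291 ± 493 and 3246 ± 362 (SD, n = 6).

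The remaining members differed by -0.24 to 0.27 on the log2 scale. Among glycolytic members, AAV-HLP-Luc and AAV-HLP-mGHR averaged 5872 ± 709 and 5266 ± 551 for Gpi1, 16146 ± 2996 and 14156 ± 1510 for Tpi1, 4349 ± 691 and 3676 ± 522 for Pgam1, and 29482 ± 10066 and 27464 ± 6661 for Ldha. Fbp1 averaged 43395 ± 6613 and 41749 ± 4821, Pcx 20829 ± 3720 and 21395 ± 1626, and Khk 12339 ± 3224 and 13461 ± 2566. Pygl averaged 13958 ± 3926 and 15268 ± 2403, Gbe1 5912 ± 1731 and 6695 ± 1224, and Slc2a2 20421 ± 5589 and 22545 ± 3581. In these 10 members the difference of the means was under 1 SD of the AAV-HLP-Luc mice. Tkt averaged 4387 ± 518 and 5331 ± 959, H6pd 15797 ± 3857 and 15645 ± 2935, Insr 6831 ± 924 and 7182 ± 913, and Akt2 4133 ± 412 and 3858 ± 216. None of the 28 related genes was called, with 4 at an unadjusted p under 0.05, as were 294 of all 1999 genes. Mlxipl averaged 3062 ± 1394 with the receptor vector against 2325 ± 1032 with luciferase (SD, n = 6).

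Pericentral marker sums lay at 271450 to 546180 in AAV-HLP-Luc and 429150 to 569980 in AAV-HLP-mGHR, and periportal sums at 197700 to 326250 and 153800 to 244340. No marker was called. At an unadjusted p under 0.05 were 5 of 7 periportal markers (median log2 fold change of the list -0.47) and 4 of 7 general hepatocyte markers (-0.28), beside 294 of all 1999 genes. Their part in the members' values was not tested.

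GHR+/+ against AAV-HLP-mGHR left 1 member called, Gys2, at a level in GHR+/+ of 0.635 of that with the receptor vector (log2 fold change -0.66, standard error 0.18, adjusted p = 0.0352), beside 11.2% of all genes. These groups differ in receptor dose and, together with it, in age and injection. Pik3r1 averaged 3608 ± 607 in GHR+/+ and 3656 ± 630 in AAV-HLP-mGHR (log2 fold change -0.02, standard error 0.14, adjusted p = 0.953). Pklr averaged 11969 ± 4651 and 8046 ± 1732 (0.52, standard error 0.25, adjusted p = 0.175). Pck1 (-0.54, adjusted p = 0.0662), Taldo1 (0.29, adjusted p = 0.0759), Pdk2 (-0.35, adjusted p = 0.08) and Pdha1 (-0.22, adjusted p = 0.0869) came near the threshold. The Gys2 call was lost in the fit over all 24 libraries (adjusted p = 0.162), with the totals behind FPKM (0.0544) and without AAV-HLP-mGHR mice 008, 019 or 022 or GHR+/+ mice 101, 102 or 119. Among the related genes Pgm1 (-0.40), Sord (-0.44) and Dld (-0.21) were lower in GHR+/+.

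AAV-HLP-Luc against GHR-/- called no member, as it called 0.0% of all genes by limma (0 of 1998, with 69 or 3.45% at an unadjusted p under 0.05). Below that unadjusted limit stood 3 members, Pck1 (log2 fold change 0.49, limma adjusted p = 0.952), Pklr (-0.55) and Tkt (-0.23). The 2 groups share the missing receptor and differ in age and in vector. The comparisons between the 4 groups share mice, so their values are set side by side and not counted against each other.

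Within each sex 3 mice stood against 3. In males, 5 members were called in GHR+/+ against GHR-/-, beside 20.1% of all genes. Pklr (log2 fold change 0.89, standard error 0.23, adjusted p = 0.0356) and Taldo1 (0.39, standard error 0.10, adjusted p = 0.0356) were higher in GHR+/+ males, and Pdk2 (-0.77, standard error 0.13, adjusted p = 0.00862), Eno1 (-0.56, standard error 0.12, adjusted p = 0.0186) and Pdha1 (-0.46, standard error 0.11, adjusted p = 0.03) lower. In females 3 members were called, beside 5.71% of all genes. G6pc counted 7361, 12061 and 12808 in GHR+/+ females and 2909, 3754 and 3774 in GHR-/- females, and the level was 3.01 times as high in GHR+/+ (log2 fold change 1.59, standard error 0.22, adjusted p = 0.0142). Ugp2 (-0.70, standard error 0.14, adjusted p = 0.0401) and Pdk2 (-0.43, standard error 0.09, adjusted p = 0.0496) were lower in GHR+/+ females. Of these, the call of Pdk2 in males alone held without any single mouse. In males Eno1 was lost without GHR+/+ mice 102 or 103, Pklr without GHR+/+ mice 102 or 103 or GHR-/- mice 113 or 114, and Pdha1 and Taldo1 when any mouse other than GHR-/- male 114 was left out, with adjusted p up to 0.164 for Taldo1. In females G6pc was lost without GHR-/- mice 131 (adjusted p = 0.0589) or 132 (0.0536), Ugp2 when any mouse other than GHR+/+ female 121 was left out (up to 0.141), and Pdk2 without each of the 6 mice in turn (up to 0.133). Other settings also ended calls within a sex. In males Pklr was lost with the totals behind FPKM (adjusted p = 0.0535) and in the fit over all 24 libraries (0.0924), and Taldo1 with the totals behind FPKM (0.0535) and with library totals (0.0822). In females Ugp2 (0.0582) and Pdk2 (0.0888) were lost with the totals behind FPKM, and G6pc (0.149), Ugp2 (0.295) and Pdk2 (0.2) in the fit over all 24 libraries.

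In males G6pc counted 13856, 16751 and 31115 in GHR+/+ and 3109, 13052 and 16610 in GHR-/- (log2 fold change 1.14, standard error 0.64, adjusted p = 0.254). Pck1 differed by -0.73 in males (adjusted p = 0.0652) and by -0.05 in females. No member was called for a difference between the male and female effect itself, beside 0.85% of all genes (17 of 1999), and the single member with an unadjusted p under 0.05 was H6pd (difference 0.58, standard error 0.23, adjusted p = 0.31), beside 13.1% of all genes. AAV-HLP-mGHR against AAV-HLP-Luc called no member within either sex by limma, beside 0.35% of genes in males and 0.45% in females, and none for the difference between sexes, beside 0.0% (130 genes at an unadjusted p under 0.05). Pik3r1 differed there by 0.84 in males and 0.43 in females (adjusted p = 0.262 and 0.397), and Pklr by 1.12 and 0.89 (adjusted p = 0.341 and 0.379). Ugp2 differed by 0.36 in males and -0.72 in females, with a difference between the sexes of 1.08 (standard error 0.55, adjusted p = 0.701).

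**Figure D4:**
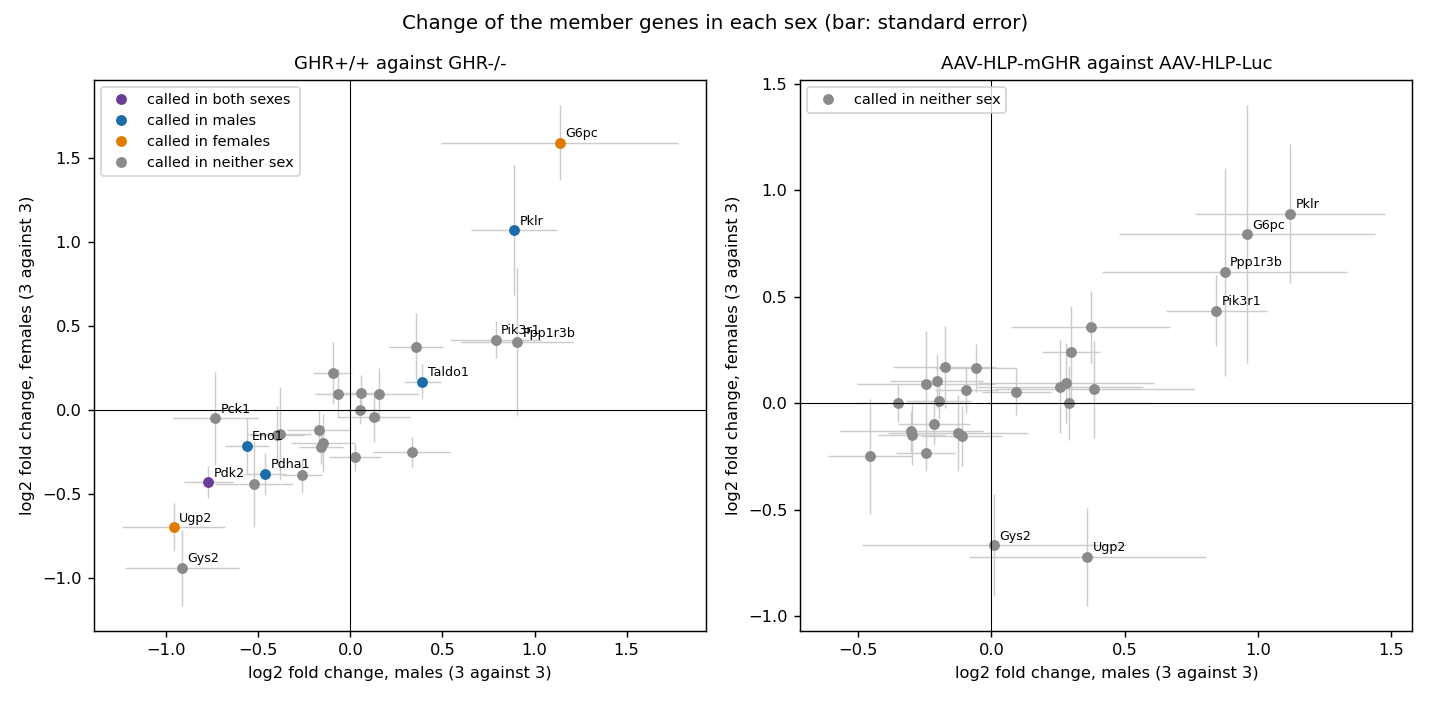
log2 fold change of each member in males (x axis) against females (y axis), with standard errors, for GHR+/+ against GHR-/- (left) and AAV-HLP-mGHR against AAV-HLP-Luc (right). On the left Pdk2 is called in both sexes (-0.77 and -0.43) and G6pc in females (1.59), and on the right no member is called.

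In GHR+/+ mice 2 members differed between the sexes, beside 13.2% of all genes. H6pd counted 18411, 20078 and 22974 in males and 9822, 10954 and 11404 in females, a level 1.91 times as high in males (log2 fold change 0.93, standard error 0.11, adjusted p = 0.00962). Pgam1 counted 4177, 4412 and 4719 in males and 3205, 3257 and 3477 in females, 1.34 times as high in males (0.42, standard error 0.07, adjusted p = 0.0206). The sexes did not overlap for either gene. The call of H6pd was lost without GHR+/+ male 102 (adjusted p = 0.052), and that of Pgam1 with the totals behind FPKM (adjusted p = 0.094) and without males 102 or 103 or females 119 or 120. In GHR-/- mice H6pd lay at 13239, 14645 and 21948 in males and 12425, 12840 and 12842 in females. Among the related genes, the pyruvate carrier subunits Mpc1 (log2 fold change -0.77, adjusted p = 0.0236) and Mpc2 (-0.72, adjusted p = 0.00408) were lower in GHR+/+ males than females, and Ldhd, a lactate dehydrogenase of the D form, was higher (1.06).

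The 10 members without counts were placed by gene set tables, 1 for each of 9 comparisons. In each table a set carries a score whose sign says whether its genes ranked towards the first or the second group, and a leading edge, the genes that produced the score. The number of sets that list a gene in the leading edge at each sign thus shows a side of the ranking, not a size or a test, and sets share genes. A gene was given a side where at least 5 sets listed it and 9 in 10 or more had the same sign, which was met in 59 of 90 pairs of gene and comparison. For the members with counts, all 21 calls with such a side lay on the side of the fitted change. Rankings and fits rest on the same libraries, so this match was largely set beforehand. It is no check of the 10 members without counts.

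3 of the insulin signalling members without counts had a side in most comparisons. Irs1, an insulin receptor substrate, was listed by 132 sets lower in GHR+/+ than GHR-/- and by none higher, and by 248 sets higher and none lower in AAV-HLP-mGHR than AAV-HLP-Luc. Foxo1, the transcription factor that Akt switches off and that drives G6pc and Pck1, was listed by 99 sets lower and none higher in GHR+/+ than GHR-/-, and by 198 higher and none lower in AAV-HLP-mGHR than AAV-HLP-Luc. Both genes thus ranked lower with the receptor intact than without it, yet higher with the receptor vector than with luciferase, and both ranked lower in GHR+/+ than in AAV-HLP-mGHR (238 and 200 sets, none higher). The luciferase group itself ranked lower than GHR-/- for Irs1 (150 sets, none higher), while Foxo1 had no side there (3 sets lower). These 2 groups differ in age and injection. What lies behind the turn of Irs1 and of Foxo1 was not tested. Ppargc1a, a coactivator of gluconeogenic and mitochondrial genes, was listed by 188 sets lower in GHR+/+ than GHR-/- and 108 lower in AAV-HLP-mGHR than AAV-HLP-Luc, with none higher in either. Irs2, the other main substrate in liver, had 1 set in the first of these and 7 in the second, and a side only in AAV-HLP-Luc against GHR-/- (64 sets higher) and in AAV-HLP-mGHR against AAV-HLP-Luc females (17 lower).

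Of the glycolytic members without counts, Pfkl, the liver phosphofructokinase, was listed by 78 sets lower in GHR+/+ than GHR-/- and by 97 lower in GHR+/+ than AAV-HLP-mGHR. Pfkfb1, which sets the level of the sugar phosphate that activates phosphofructokinase, was listed by 49 sets lower in AAV-HLP-mGHR than AAV-HLP-Luc. Gapdh was listed by 89 sets lower in AAV-HLP-mGHR than AAV-HLP-Luc and by none in GHR+/+ against GHR-/-. It has 172 genes of near-identical sequence, 153 of them pseudogenes, so its reads are uncertain. Pdk4, the pyruvate dehydrogenase kinase of fasting, took opposite sides in the sexes, with 101 sets lower in GHR+/+ than GHR-/- males and 94 higher in GHR+/+ than GHR-/- females, and none in the pooled table. In GHR+/+ mice 118 sets listed Pdk4 lower in males than females. Of the pentose phosphate members, G6pdx, the enzyme of entry to the pathway, was listed by 101 sets lower in AAV-HLP-mGHR than AAV-HLP-Luc, and by 169 lower in GHR+/+ males than females. Pgd, which follows it, was listed by 33 sets higher in GHR+/+ than GHR-/- females, and in AAV-HLP-mGHR against AAV-HLP-Luc by 27 lower in males and 39 higher in females.

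**Figure D5:**
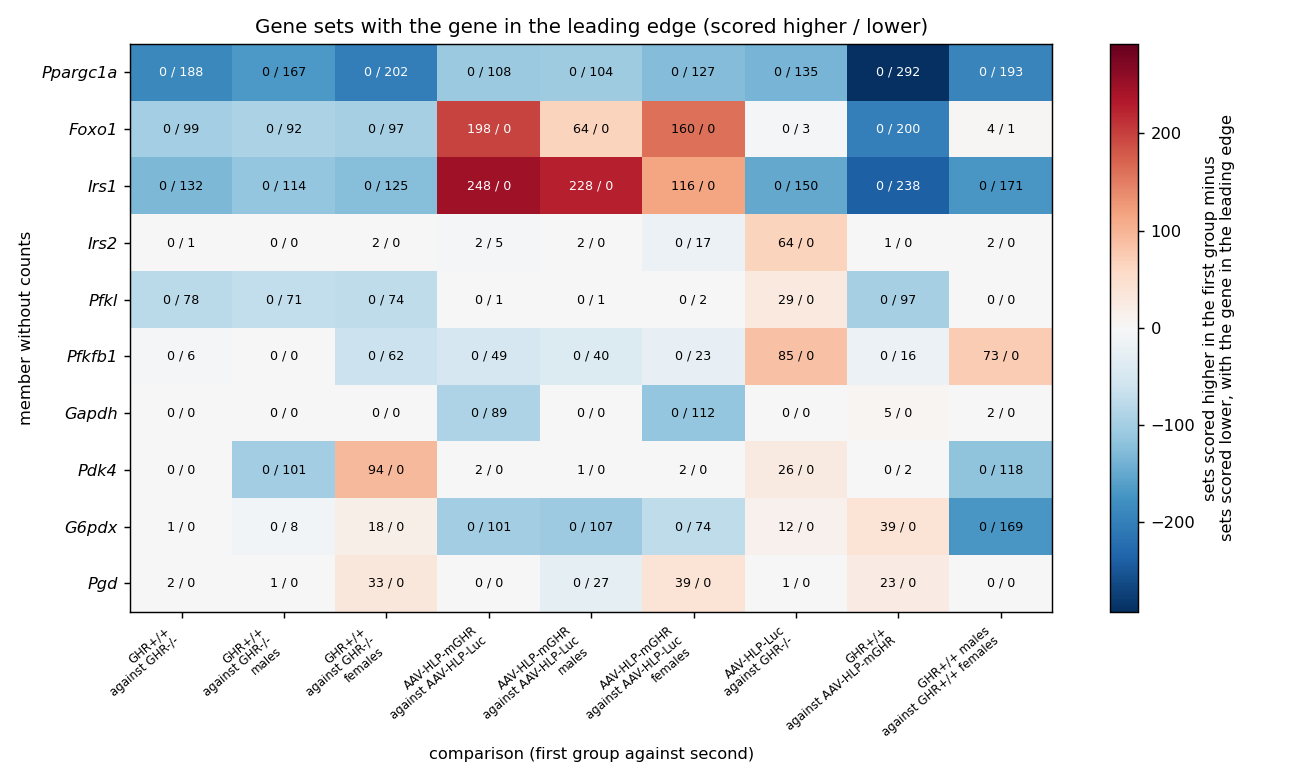
Number of gene sets that list each of the 10 members without counts in the leading edge, scored higher and lower in the first group, in 9 comparisons, with colour for the difference of the 2 numbers. Irs1 and Foxo1 turn from 132 and 99 sets lower in GHR+/+ against GHR-/- to 248 and 198 higher in AAV-HLP-mGHR against AAV-HLP-Luc. Irs1 also has 150 sets lower in AAV-HLP-Luc against GHR-/-.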

How the data were processed

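Per the methods of the study, polyA RNA of livers kept in RNAlater gave strand-marked libraries. The sequencing provider trimmed the reads with fastp, aligned them with Hisat2 to mm39 and counted reads per gene with featureCounts (1.5.0-p3, from the submitters' notes). The raw counts per gene and the FPKM values are the study's own, from its supplementary tables, where 1999 and 1301 of 56748 genes were in hand. The 9 deposited gene set tables hold an enrichment score, p values and the leading edge of each set, made by the authors with DESeq2 and a ranking test over gene sets. Only the sign of the deposited score and the leading edge were used, and the authors' p values and fold changes were not. The paper's own finding on Ghr is only quoted beside the counts.

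Size factors (median of ratios) scaled the counts, which were fitted with limma 3.58.1 (voom weights) in R 4.3.3, on all genes in hand and the libraries of each comparison, sexes pooled as in the study. Single values were tested on log2(normalized count + 1). Size factors and adjusted p rest on abundant genes only. Each library is 1 mouse, and replicate names are animal numbers. Gene symbols came from the study's tables (1707) or GENCODE M39 (292), which gave positions and near-identical genes (minimap2 2.31, at least 90% identity over 50% of the transcript). RefSeq promoters were placed in GRCm39 by exact match. The fits were tested on simulated counts. Every member with counts is named with its group means, called members of age-matched comparisons with lowest, median and highest values, and related genes only where called. Some called related genes are not reported here. Mlxipl in AAV-HLP-mGHR against AAV-HLP-Luc is named outside that rule, after its values were seen. The members, lists and tests were chosen with earlier results of these data known. The alternatives tried were other scalings, limma-trend, a count filter, 1 fit over all libraries, sex as a covariate and leaving out each mouse. Leaving out 2 libraries together was added after seeing the data.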

Additional observations from a re-analysis of the deposited data

Results flagged for a closer look

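Among 108 sets of 6 mice (27 members in 4 groups), 8 held a mouse whose gap to the rest passed Dixon's critical value for 6 values, and chance alone gives such a gap in about 1 in 20 sets. In AAV-HLP-Luc male 005, Ugp2 was low at 8050 normalized counts (median of the other 5 mice 29215) and Akt2 high at 4967 (3958). In AAV-HLP-mGHR female 024, Gbe1 was low at 4506 (6799), Tkt low at 3571 (5608) and Akt2 high at 4284 (3790). In GHR-/- male 113, Pgam1 was high at 5257 (4087) and H6pd at 21948 (12842), and in GHR+/+ female 121 Pck1 was high at 118070 (74631).

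A difference of the receptor effect between the sexes was called for Mpc2, a subunit of the carrier that takes pyruvate into mitochondria. Mpc2 counted 4835, 5031 and 5089 in GHR+/+ males and 7523, 7641 and 10183 in GHR-/- males, without overlap, but 8096, 8220 and 8285 in GHR+/+ females and 7370, 7753 and 8458 in GHR-/- females. The male effect minus the female effect was -0.81 on the log2 scale (standard error 0.16, limma adjusted p = 0.0463). The call of Mpc2 was not followed over the other settings or without single mice, as those of members were. For its partner Mpc1 the difference was -1.01 (standard error 0.22, adjusted p = 0.0597).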

How the results depend on the processing

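No paired analysis was possible because the animal numbers are shared by no groups. In GHR+/+ against GHR-/- and AAV-HLP-Luc against GHR-/-, counts of called genes and members stayed within 1.5 times the main count under all settings and without any single mouse. In AAV-HLP-mGHR against AAV-HLP-Luc, called members went from 1 to 0 with library totals or the totals behind FPKM and to 2 with 1 fit over all 24 libraries or without the pair of libraries that stood apart, and called genes from 31 to 49 with sex as a covariate. Within males called genes there went from 7 to 13 with limma-trend and 44 in the fit over all libraries, with members from 0 to 1, and within females from 9 to 14 in that fit. In GHR+/+ against AAV-HLP-mGHR called genes went from 223 to 145 with the totals behind FPKM and 354 with sex as a covariate, and members from 1 to 0 with those totals or the fit over all libraries and to 3 with the covariate. In GHR+/+ against GHR-/- females called genes went from 114 to 72 and members from 3 to 0 in the fit over all libraries, and members to 1 with the totals behind FPKM. Members called between GHR+/+ sexes went from 2 to 4 with library totals, and genes with a sex difference of the receptor effect from 17 to 46 with limma-trend. The causes were not tested.

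Leaving out 1 mouse gave 379 to 515 genes and 7 to 11 members in GHR+/+ against GHR-/-, 197 to 373 and 1 to 5 within males, and 28 to 77 and 0 to 2 within females. The comparison of AAV-HLP-mGHR with AAV-HLP-Luc gave 18 to 51 genes (18 and 19 without AAV-HLP-Luc males 002 and 001, 19 without AAV-HLP-mGHR mouse 019, 51 without AAV-HLP-Luc female 015) and 0 to 2 members, with 0 to 3 genes within males and 1 to 17 within females. GHR+/+ against AAV-HLP-mGHR gave 112 to 323 genes (112 and 117 without GHR+/+ males 102 and 103, 129 and 131 without AAV-HLP-mGHR mice 008 and 019) and 0 to 2 members. GHR+/+ males against females gave 18 to 208 genes and 0 to 2 members, and the sex difference of the receptor effect 7 to 40 genes and 0 to 1 members.

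Scaling also shifted directions between sexes. Of genes called between GHR+/+ males and females, 147 were higher and 117 lower in males, but 63 and 195 with the totals behind FPKM, which moved the median of all genes to -0.13 on the log2 scale, and 94 and 182 with library totals. In GHR+/+ against GHR-/- males 214 and 187 became 165 and 241 with library totals. In the sex difference of the vector effect, library totals moved that median to 0.14. No member changed direction while called. Outside the leave-outs, single genes kept their side of the threshold in 385 cases, lost the call in 16 and gained it in 6. Reads in hand limit no member, the lowest mean being 1123 counts, and 3 mice per sex limit the tests within sexes.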
